A study of Rattus norvegicus with 20 samples.

Results

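Transcripts of 7 regulators of liver lipid synthesis were followed across graded food restriction in rats: Srebf1, Srebf2, Scap, Insig1, Insig2, Mlxipl and Thrsp. Every probe set that the platform annotation gives to exactly 1 of these genes was taken, which gave 11 of the 15923 probe sets of the array. Of these, 10 passed the filter on dim signal and were tested, so each of the 7 genes had a tested probe set, among 9520 tested probe sets and 7056 named genes in all. Where a gene had several probe sets, its brightest stood for it in counts of genes.

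The liver RNA came from male Wistar rats, an outbred laboratory strain, on an unrestricted diet or on a diet cut by 5, 10, 20 or 30%. Restriction began at 6 weeks of age and lasted 1 week or 1 month, and all groups, controls included, went without food for 16 h before the liver was removed. RNA of 5 rats was combined into 1 pool for each of the 10 groups, and each pool was hybridised to 2 Affymetrix arrays, so 20 arrays measured 10 pools. The labels give 6 weeks of age for the 1 week arrays and 9 weeks for the 1 month arrays, without saying whether this is age at the start or at sampling, so duration and labelled age cannot be told apart. No condition had a repeated pool. The 2 arrays of a pool show technical spread only, and all p-values measure how far the 10 pools depart from a fitted line, not the spread between rats.

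Srebf1 and Srebf2 encode the sterol regulatory element binding proteins, transcription factors made as inactive precursors in the endoplasmic reticulum membrane. The escort protein Scap carries them to the Golgi, where proteases release the active part. When sterols are plentiful, the Insig proteins hold Scap and its cargo in the endoplasmic reticulum. SREBP-1c, a product of Srebf1, drives fatty acid synthesis in liver and is induced by insulin, whereas SREBP-2, from Srebf2, mainly drives cholesterol synthesis. Insig1 is itself a target of the SREBPs, while the liver transcript of Insig2 is known to fall with insulin and rise with fasting. Mlxipl encodes ChREBP, a factor that responds to carbohydrate, and Thrsp encodes Spot 14, a small nuclear protein that promotes lipogenesis. The arrays measure transcripts, not the cleavage of the precursors.

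RefSeq promoter windows on build GRCr8, covering the 250 bases before each annotated start, were matched by symbol for all 7 genes (9 windows, since Srebf1 and Mlxipl have more than 1 start). The windows of Srebf1 and Insig1 are shown because the main results turn on these genes, with motif matches in capitals. Srebf1 has both its windows on the minus strand, at chr10:45519011-45519260 and chr10:45529165-45529414, and Insig1 lies at chr4:8057770-8058019, also minus strand.
Srebf1 first window: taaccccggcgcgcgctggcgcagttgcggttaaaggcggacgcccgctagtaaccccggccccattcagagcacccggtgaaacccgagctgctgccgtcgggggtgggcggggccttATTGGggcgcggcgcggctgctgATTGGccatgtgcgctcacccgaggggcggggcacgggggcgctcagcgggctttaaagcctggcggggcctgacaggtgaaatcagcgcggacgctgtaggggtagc
Srebf1 second window: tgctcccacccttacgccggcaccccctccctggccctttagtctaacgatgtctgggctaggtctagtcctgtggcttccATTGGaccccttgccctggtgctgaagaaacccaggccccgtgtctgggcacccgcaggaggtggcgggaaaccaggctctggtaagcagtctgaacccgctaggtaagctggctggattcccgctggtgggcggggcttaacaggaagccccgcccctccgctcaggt
Insig1: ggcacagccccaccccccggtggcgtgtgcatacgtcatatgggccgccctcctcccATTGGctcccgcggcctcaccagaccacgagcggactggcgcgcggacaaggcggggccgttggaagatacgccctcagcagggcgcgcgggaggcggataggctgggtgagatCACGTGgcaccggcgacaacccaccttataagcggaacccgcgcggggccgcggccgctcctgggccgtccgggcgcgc
The motifs searched on both strands were the sterol regulatory element core TCACNCCAC, the E-box CACGTG and the CCAAT box, read as ATTGG on the other strand. The core TCACNCCAC was in 0 of the 9 windows and in 0.974% of all 33469 windows of that length. The E-box was in 2 of the 9, those of Insig1 (79 bases before the start) and Scap (50 bases before it), and in 5.59% of all windows. CCAAT was in 8 of the 9 windows and in 34% of all. The windows of Mlxipl overlap, so they are not separate counts. A match is a description of the letters, and no match says only that these letters are not in this window.

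Srebf1 had its highest signals in the control pools and fell with increasing restriction. On its brighter probe set, 1388426_at, the control arrays read 9.24 and 9.44 at 1 week and 9.38 and 9.33 at 1 month (log2 signal throughout). At 1 week the arrays read 8.73 and 8.5 at 5% restriction, 8.24 and 8.14 at 10%, 7.77 and 7.63 at 20%, and 7.42 and 7.84 at 30%. At 1 month they read 8.35 and 8.55 at 5%, 8.32 and 8.37 at 10%, 8.32 and 8.26 at 20%, and 7.7 and 7.23 at 30%. Every restricted pool had both arrays below both control arrays of its duration. At both durations the pool means were lower at each further level, although at 1 month those at 5, 10 and 20% ran only from 8.45 to 8.29. In the order of all 10 pools, from 7.46 in the 30% pool at 1 month to 9.36 in the control pool at 1 month, only 3 of the 9 neighbouring pairs had arrays that did not overlap. One of these gaps separated the control pools from all others.

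The dose trend of Srebf1, the log2 change over 30 percentage points with duration as a covariate, was -1.57 ± 0.214 (SE, n = 10 pools), a 2.96-fold lower signal (limma adjusted p = 0.00541). The second probe set, 1371104_at, gave -1.36 ± 0.227 (adjusted p = 0.0101). Its control arrays read 7.68, 8.03, 8.18 and 8.14, its 30% arrays 6.39, 6.44, 6.35 and 6.79, and all 8 of its restricted pools lay below their control with both arrays. Its pool means did not step down at each level: at 1 month they were 7.19, 7.48, 7.38 and 6.57 from 5 to 30%. At 1 week they were 6.34 at 20% and 6.42 at 30%. Both probe sets of the gene therefore fell, but only 1388426_at was lower at each further level. Against control as a factor, Srebf1 on 1388426_at differed by -0.82 at 5% (adjusted p = 0.0772), and fell by 1.08 at 10% (adjusted p = 0.0121), by 1.35 at 20% (adjusted p = 0.00293) and by 1.80 at 30% (adjusted p = 0.000867). As a single step of restricted against control pools it fell by 1.26 ± 0.257 (adjusted p = 0.0154). The step missed the threshold without the 1 week control pool (-1.22) or the 1 month control pool (-1.3). Such a fit leaves 1 control pool, and far fewer probe sets of the whole array then passed in the step. The call at 10% was lost without either control or either 10% pool (values from -1.12 to -1.04). It was also lost with signals as deposited (-0.76, limma adjusted p = 0.179). Without a variance trend the step and the calls at 10 and 20% were lost (adjusted p = 0.0563, 0.128 and 0.0692). The slope at 1 week was -1.61 (adjusted p = 0.0483, and from 0.0516 to 0.255 when 8 of the 10 pools were each left out in turn), that at 1 month -1.52 (adjusted p = 0.143), and the difference of the slopes was 0.1 ± 0.448 (adjusted p = 0.992). The 3′ to 5′ signal ratio of the Gapdh control probe sets, a sign of RNA integrity, ran from 1.3 to 1.61 over the pools and was lowest in the 30% pool at 1 month. With that ratio as a covariate the Srebf1 dose trend was -1.49 with an adjusted p of 0.0995, the only one of 22 alternatives in which it missed the threshold. The same ratio of the actin control probe sets was lowest in both 30% pools, 2.23 at 1 week and 2.28 at 1 month, against 2.73 and 2.72 in the control pools. With the actin ratio as a covariate the 30% call of Srebf1 was lost (-1.77, limma adjusted p = 0.0812). The dose trend of 1371104_at was lost with the actin ratio (-1.54, adjusted p = 0.0566) and with the Gapdh ratio (adjusted p = 0.12). Over all tested probe sets, the actin ratio cut the calls at 30% from 198 lower and 233 higher to 0 and 1. The Gapdh ratio cut those of the dose trend from 187 and 171 to 2 and 1.

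Insig1 fell between control and the mildest restriction, and no further fall with dose passed the test. On its probe set, 1367894_at, the control arrays read 10.33 and 10.29 at 1 week and 10.67 and 10.64 at 1 month. At 1 week the restricted arrays read 7.45 and 7.53 at 5%, 6.79 and 7.12 at 10%, 6.68 and 6.98 at 20%, and 7.62 and 7.47 at 30%. At 1 month they read 7.51 and 7.02 at 5%, 8.08 and 8.43 at 10%, 8.84 and 8.88 at 20%, and 8.69 and 8.8 at 30%. All restricted arrays lay below all control arrays: the highest restricted pool mean was 8.86, against 10.31 in the lower control pool. At 5% restriction the Insig1 pools were 7.06-fold below control at 1 week and 10.5-fold below at 1 month. At 30% they were 6.8-fold below at 1 week and 3.76-fold below at 1 month, so at 1 month the pools at 10, 20 and 30% lay above the pool at 5%, with arrays that did not overlap.

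Set as a single step, the 8 restricted pools against the 2 control pools, Insig1 fell by 2.74 ± 0.335 (SE, n = 10 pools), a 6.68-fold lower signal (limma adjusted p = 0.00106). Its dose trend over all pools was -1.28 ± 0.881 (adjusted p = 0.482). Each level fell against control: by 3.10 at 5% (adjusted p = 0.0149), by 2.88 at 10% (adjusted p = 0.00776), by 2.64 at 20% (adjusted p = 0.00791) and by 2.34 at 30% (adjusted p = 0.0104). The step of Insig1 passed the threshold in all 21 alternatives, with values from -3.11 to -2.37. The call at 5% was lost without the 1 week control pool (-2.74), the 1 month control pool (-3.47) or the 5% pool at 1 month (-2.38). Without the 1 week control pool the calls at 10, 20 and 30% were lost too (-2.51, -2.27 and -1.97). They were also lost without the 1 week pool of the same level (-2.65, -1.95 and -2.17), and that at 10% without its 1 month pool (-3.11). Each of these fits leaves 1 control pool or 1 pool of the level. Fewer probe sets of the whole array then passed at that level. With the actin ratio as a covariate the calls at 5 and 30% were lost (limma adjusted p = 0.101 and 0.23), and with the Gapdh ratio that at 30% (0.0531). Without a variance trend all 4 were lost (adjusted p from 0.093 to 0.23). Of all tested probe sets, 0 were called lower at 5 or 30% with the actin ratio, against 17 and 198 in the main fit.

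**Figure D1:**
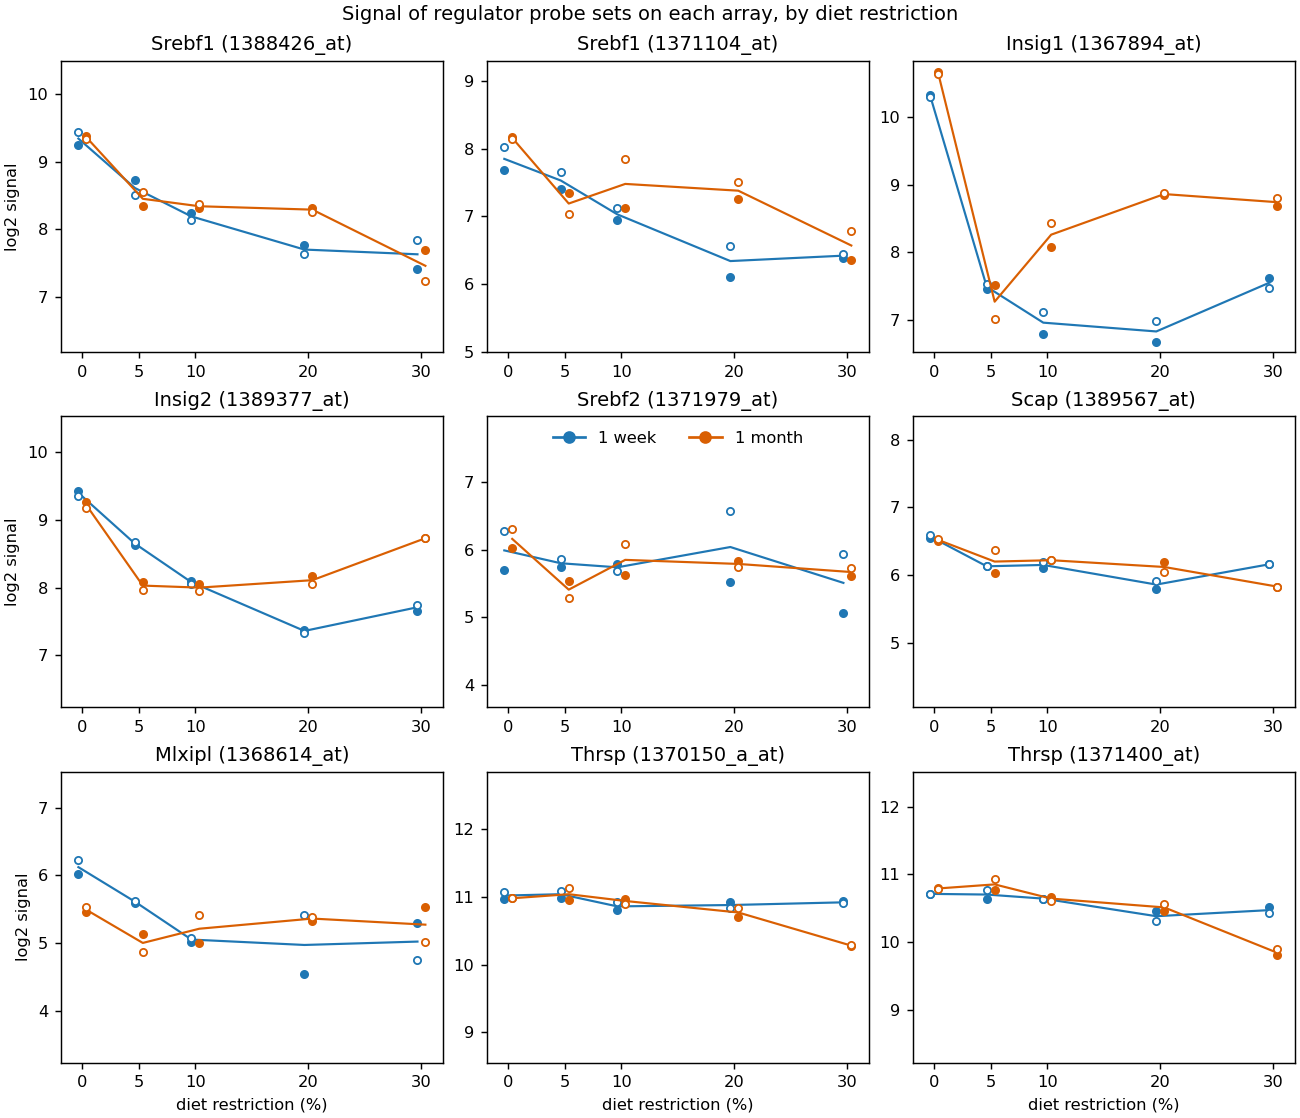
Log2 signal (vertical axis, spanning the same number of log2 units in each panel) against diet restriction in percent (horizontal axis) for 9 probe sets of the 7 genes. Filled and open points are the first and second array of a pool, lines join the pool means, blue is 1 week and orange 1 month; Srebf1 steps down over the levels, whereas Insig1 drops from 10.31 and 10.65 in the control pools to 7.49 and 7.27 at 5%.

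A further fit held both a step at 5% and a dose term among restricted pools. The dose term is scaled to 30 points, although the restricted pools run only from 5 to 30%. Step and dose term therefore do not add up to the change at 30%. For Insig1 the fitted difference between control and 5% was -3.07 ± 0.326 (SE, n = 10 pools, limma adjusted p = 0.000873), and the further change over 30 points was 0.88 ± 0.404 (adjusted p = 0.388). For Srebf1 on 1388426_at the step was -0.84 ± 0.138 (adjusted p = 0.00665) and the further change -1.13 ± 0.171 (adjusted p = 0.0152). In this fit Srebf1 passed in both terms and Insig1 in the step; the difference between the genes was not tested. The second Srebf1 probe set gave a step of -0.61 (adjusted p = 0.138) and a dose term of -1.07 (adjusted p = 0.0822). The Srebf1 step was lost without the 1 week control pool (-0.8) or the 1 month control pool (-0.88). With 1 control pool left, far fewer probe sets of the whole array passed in this step. The Srebf1 dose term was lost without the 30% pool at 1 week (-1.25, limma adjusted p = 0.0795) or at 1 month (-0.97, adjusted p = 0.0666). The dose term also missed the threshold with the Gapdh ratio (-0.91, adjusted p = 0.254) or the actin ratio (-1.03, adjusted p = 0.517) as a covariate, with signals as deposited (-1.24, adjusted p = 0.097), without a variance trend (adjusted p = 0.166) and without the first array of each pool (adjusted p = 0.0533). The step missed it with signals as deposited (-0.58, limma adjusted p = 0.279) and without a variance trend (adjusted p = 0.065). With either ratio as a covariate, 0 of all tested probe sets were called in the dose term, against 40 lower and 27 higher in the main fit.

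**Figure D2:**
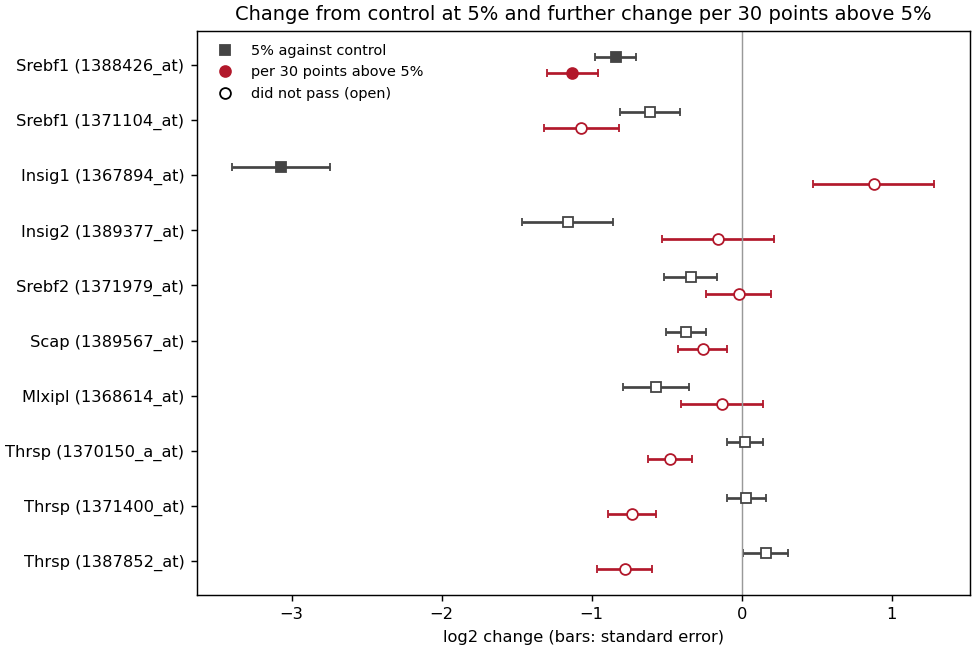
Log2 change (horizontal axis) of each tested probe set of the 7 genes in the fit with both terms. Squares are the fitted difference of 5% restriction from control, and circles the further change among the restricted pools, scaled to 30 percentage points. Bars are the standard error, and filled symbols mark an adjusted p under 0.05. Insig1 has the farthest square, at -3.07, with its circle at 0.88, while Srebf1 (1388426_at) has both symbols filled, at -0.84 and -1.13.

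Insig2, the second endoplasmic reticulum retention protein, was also lower in all restricted pools. On 1389377_at the control arrays read 9.43 and 9.36 at 1 week and 9.26 and 9.18 at 1 month. At 1 week the arrays read 8.63 and 8.67 at 5%, 8.1 and 8.06 at 10%, 7.38 and 7.33 at 20%, and 7.66 and 7.75 at 30%. At 1 month they read 8.09 and 7.97 at 5%, 8.05 and 7.95 at 10%, 8.17 and 8.05 at 20%, and 8.74 and 8.73 at 30%. The arrays of a pool lay close together, with a median SD of 0.0549, and 6 of the 9 neighbouring pairs in the order of pools were separate. The lowest pool was 20% at 1 week, 4.11-fold below its control, and the restricted pool nearest to control was 30% at 1 month, 1.4-fold below. Over both durations the step of Insig2 was -1.22 ± 0.266 (SE, n = 10 pools, limma adjusted p = 0.0207), and of the levels only 20% passed (-1.57, adjusted p = 0.0272, but 0.326 without the 20% pool at 1 week, 0.17 without the 1 week control and 0.108 without the 1 month control). The step was lost without the 1 week control pool (-1) or the 1 month control pool (-1.45). With 1 control pool left, far fewer probe sets of the whole array passed in the step. Without a variance trend the step and the 20% call were lost (adjusted p = 0.0691 and 0.144), and the actin ratio as covariate ended the 20% call (adjusted p = 0.0546). Its slope was -1.71 at 1 week and -0.15 at 1 month, neither past the threshold (adjusted p = 0.143 and 0.957), and the slope difference of 1.56 ± 0.737 did not pass (adjusted p = 0.921).

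Scap, the escort protein that senses sterols, showed small differences with a tight array spread. On 1389567_at the control arrays read 6.55 and 6.59 at 1 week and 6.51 and 6.53 at 1 month, and the restricted pool means ran from 5.83 (30% at 1 month) to 6.22 (10% at 1 month). Both arrays of all 8 restricted pools lay below both control arrays of their duration. The step of Scap was -0.46 ± 0.127 (SE, n = 10 pools), which did not pass (limma adjusted p = 0.0553), and its dose trend was -0.48 ± 0.152 (adjusted p = 0.106). Without the 5% pool at 1 week 5 of the 7 genes passed in the step instead of 3, with Scap and Mlxipl added. Over all tested probe sets that fit also called more, 358 lower and 530 higher, against 201 and 301 with all pools.

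Srebf2 overlapped between pools. On 1371979_at the control arrays read 5.7 and 6.27 at 1 week and 6.02 and 6.31 at 1 month, and restricted pool means ran from 5.41 (5% at 1 month) to 6.04 (20% at 1 week). No neighbouring pools in its order were separate (0 of 9), and only 3 of 8 restricted pools had both arrays below both controls. Its step was -0.35 ± 0.153 (SE, n = 10 pools, limma adjusted p = 0.239) and its dose trend -0.25 ± 0.191 (adjusted p = 0.537). The second probe set of Srebf2, 1377489_at, had pool means from 0.78 to 2.18, under the lowest mean signal tested (3.54), with a median SD of 0.804 between the arrays of a pool. It was left out of the tests and shows no order of pools.

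Mlxipl, the ChREBP gene, had its highest pool at control and 1 week. On 1368614_at the control arrays read 6.02 and 6.22 at 1 week but 5.46 and 5.53 at 1 month, and the pool means at 1 week went to 5.61 at 5%, 5.05 at 10%, 4.97 at 20% and 5.02 at 30%. At 1 month the restricted pool means ran from 5 (5%, arrays 5.13 and 4.87) to 5.36 (20%, arrays 5.33 and 5.39), all below the control mean of 5.49. Both arrays lay below both control arrays in 7 of 8 restricted pools. The step of Mlxipl was -0.62 ± 0.192 (SE, n = 10 pools, limma adjusted p = 0.0842), and its slopes were -1.01 at 1 week (adjusted p = 0.147) and 0 at 1 month (adjusted p = 0.998). The difference of the slopes was 1.01 ± 0.439 (adjusted p = 0.903).

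Thrsp, the Spot 14 gene, had 1 pool well apart from the rest, 30% restriction at 1 month. On 1370150_a_at the pool means of all other groups ran from 10.77 to 11.04, while the arrays of the 30% pool at 1 month read 10.27 and 10.29, and the next lowest pool, 20% at 1 month, read 10.71 and 10.83. On 1371400_at the 30% pool at 1 month read 9.8 and 9.89, against 10.8 and 10.78 in its control, and on 1387852_at it read 8.32 and 8.08 against 9.17 and 9.2. All 3 probe sets thus had their lowest pool there, 1.62-fold, 1.92-fold and 1.97-fold below control. The dose trend passed on 1371400_at (-0.63 ± 0.133, SE, n = 10 pools, limma adjusted p = 0.0264) and did not on 1370150_a_at (-0.41 ± 0.12, adjusted p = 0.0796) or 1387852_at (-0.59 ± 0.165, adjusted p = 0.0708). The call on 1371400_at missed the threshold without the 5% pool at 1 week (adjusted p = 0.0518), the 20% pool at 1 week (0.0554) or the 1 month control (0.0814), with signals as deposited (0.67), with median centring (0.0849) and without a variance trend (0.097). The 30% pool at 1 month also had the lowest Gapdh 3′ to 5′ ratio, 1.3, and with that ratio as a covariate the trend on 1371400_at was -0.29 (adjusted p = 0.35), while the actin ratio gave -0.53 (adjusted p = 0.195). The steps were -0.16, -0.25 and -0.13, with adjusted p of 0.61, 0.522 and 0.794.

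A fit with the dose term split by duration was added after the values were seen. In it the Thrsp dose term at 1 month was -0.83 on 1370150_a_at, -1.08 on 1371400_at and -1.22 on 1387852_at, with limma adjusted p of 0.0358, 0.0211 and 0.018. Without the 30% pool at 1 month these terms were -0.47, -0.61 and -0.64, each with an adjusted p of 1. All 3 calls were also lost without the 5% pool at 1 month (adjusted p = 0.268, 0.196 and 0.0919), and that on 1370150_a_at without the 20% pool at 1 week (0.065) or the 10% pool at 1 month (0.0759). At 1 week they were -0.14, -0.37 and -0.35 (adjusted p = 0.73, 0.337 and 0.398). The differences between durations were -0.7, -0.72 and -0.87, and none passed (adjusted p = 0.391, 0.399 and 0.391). In the same fit the Insig1 dose term was 0.08 ± 0.43 at 1 week and 1.68 ± 0.43 at 1 month (adjusted p = 0.962 and 0.22), and the Insig2 terms were -1.07 and 0.74, with a difference of 1.81 ± 0.431 (adjusted p = 0.383). None of the 10 probe sets passed for a difference between durations in this fit. Over all tested probe sets the split fit called 0.336% lower at 1 week, 0.158% lower at 1 month and 0% lower for the difference.

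Counted by gene, 1 of the 7 fell in the dose trend (Srebf1) and 0 rose, where 1.96% of all 9520 probe sets were called lower and 1.8% higher. In the restriction step 3 fell (Srebf1, Insig1 and Insig2) and 0 rose, where 2.11% of all were called lower and 3.16% higher. At 5% against control 1 gene fell (Insig1), beside 0.179% of all probe sets, and at 10% 2 fell (Srebf1 and Insig1), beside 0.851%. At 20% 3 fell, with Insig2 added, beside 1.64%, and at 30% 2 fell (Srebf1 and Insig1), beside 2.08%. With both terms fitted, 2 of the 7 fell in the step (Srebf1 and Insig1), beside 1.19% of all, and 1 in the dose term (Srebf1), beside 0.42%. The slope at 1 week called 1 gene (Srebf1), beside 0.42% of all lower, and the slope at 1 month 0, beside 0.0315%. Under limma, 0 of the 7 genes passed for duration (0 at an unadjusted p under 0.05; 0.168% of all called lower) and 0 for the slope difference (2 at an unadjusted p under 0.05; 0% of all). The median over the 7 genes was -0.5 in the dose trend and -0.62 in the step, against 0.00339 and 0.00225 over all tested probe sets.

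Srebf1, Insig1, Insig2 and Scap had both arrays of all 8 restricted pools below both control arrays of the same duration, which 2.5% of all tested probe sets did. Insig1 also did so by a log2 difference of at least 1 in all 8 pools, beside 0.147% of all. Srebf1 and Insig2 did so in 6 of 8 pools, and 0.504% of all probe sets did so in at least 6. With the signals as deposited, not quantile normalized, the median of all tested probe sets moved to 0.113 in the dose trend and 0.251 in the step. The calls then split as 46 lower and 295 higher in the step, against 201 and 301, and as 40 lower and 18 higher in the dose trend, against 187 and 171, while median centring gave 116 lower and 27 higher in the dose trend. The step of Insig1 stayed past the threshold under each of these scalings.

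Genes of the surrounding pathway were taken from 6 lists. Targets of SREBP-1c and ChREBP had 24 measured genes, of which 15 fell and 0 rose in the dose trend, with a median of -0.93 against -0.00227 over all 7056 genes. Fasn, the fatty acid synthase, fell by 3.87 ± 0.55 over 30 points (SE, n = 10 pools, limma adjusted p = 0.0061), with pool means of 10.22, 8.99, 8.02, 6.13 and 5.58 from control to 30% at 1 week and of 10, 8.03, 6.68, 7.16 and 6.21 at 1 month. Elovl5, a fatty acid elongase, fell by 1.36 ± 0.133 (adjusted p = 0.00117), and Slc25a1, the mitochondrial citrate carrier, by 1.1 ± 0.131 (adjusted p = 0.00248). In the step 11 of the 24 fell and 1 rose, Dgat2, an acyltransferase of triglyceride synthesis (0.37, adjusted p = 0.0137); the median was -0.81. Pnpla3, a lipid droplet protein, had control pools at 8.78 and 8.84 and its pools at 20 and 30% at 1 week and at 10, 20 and 30% at 1 month below the lowest mean signal tested, with 5% pools of 5.87 and 4.08.

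Targets of SREBP-2 had 16 measured genes, and 7 fell and 0 rose in both the dose trend and the step, with medians of -0.8 and -0.68. Pmvk, whose enzyme phosphorylates mevalonate phosphate, fell by 1.99 ± 0.321 in the dose trend (SE, n = 10 pools, limma adjusted p = 0.00887), and Fdps, which makes farnesyl diphosphate, by 1.61 ± 0.239 (adjusted p = 0.0061). Dhcr7, a late enzyme of cholesterol synthesis, fell by 1.8 ± 0.261 in the step (adjusted p = 0.00251), with control pools of 8.23 and 8.02 and restricted pools between 5.86 and 7.16. These enzymes fell while the Srebf2 transcript itself passed in no test.

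The next list held proteins that process and degrade the SREBPs and Insigs. Of its 14 measured genes, 0 passed in the dose trend, with a median of 0.12, and 2 rose and 0 fell in the step, with a median of -0.02. Erlin1, an endoplasmic reticulum membrane protein that takes part in sterol-regulated degradation, was higher by 0.93 ± 0.19 (SE, n = 10 pools, limma adjusted p = 0.0151), from control pools at 7.4 and 7.42 to restricted pools between 7.69 and 8.65. Sar1b, a GTPase of the vesicles that leave the endoplasmic reticulum, rose by 0.44 ± 0.0793 (adjusted p = 0.00985). Mbtps1 and Mbtps2, the Golgi proteases of the pathway, had dose trends of 0.07 and 0.24 (adjusted p = 0.828 and 0.502).

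Of 26 partner and upstream regulators, 1 rose and 1 fell in the dose trend and 0 passed in the step (medians 0.02 and 0.09). Mid1ip1, a relative of Thrsp whose product pairs with Spot 14, fell by 0.98 ± 0.204 (SE, n = 10 pools, limma adjusted p = 0.0239), and Crtc2, a coactivator of fasting genes, rose by 0.6 ± 0.149 (adjusted p = 0.0468). The 2 arrays of the 1 week control pool of Crtc2 read 5.32 and 4.18, farther apart than the size of that rise. Of 17 genes of insulin signalling, 0 passed in the dose trend and 1 rose in the step, Irs2, an insulin receptor substrate (1.43 ± 0.274, adjusted p = 0.0123), with control pools of 3.68 and 3.49 near the lowest level tested. Of 6 LXR targets, Abcg8, a sterol transporter subunit, rose in the dose trend (1.29 ± 0.31, adjusted p = 0.0422). Its control pools, at 3.27 and 2.7, lay under the lowest mean signal tested. In the step Cyp7a1, which starts the main route from cholesterol to bile acids, rose by 2.26 ± 0.331 (adjusted p = 0.00255), from 5.24 and 5.25 in control pools to between 6.19 and 8.24. Abcg5, the partner of Abcg8, also rose in the step (2.21, adjusted p = 0.00235), and Lpcat3, a phospholipid acyltransferase, fell by 0.76 (adjusted p = 0.014). The 1 week control pool of Abcg5, at 3.51, was also under the lowest mean signal tested. The medians of this list were 0.97 in the dose trend and 0.89 in the step.

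**Figure D3:**
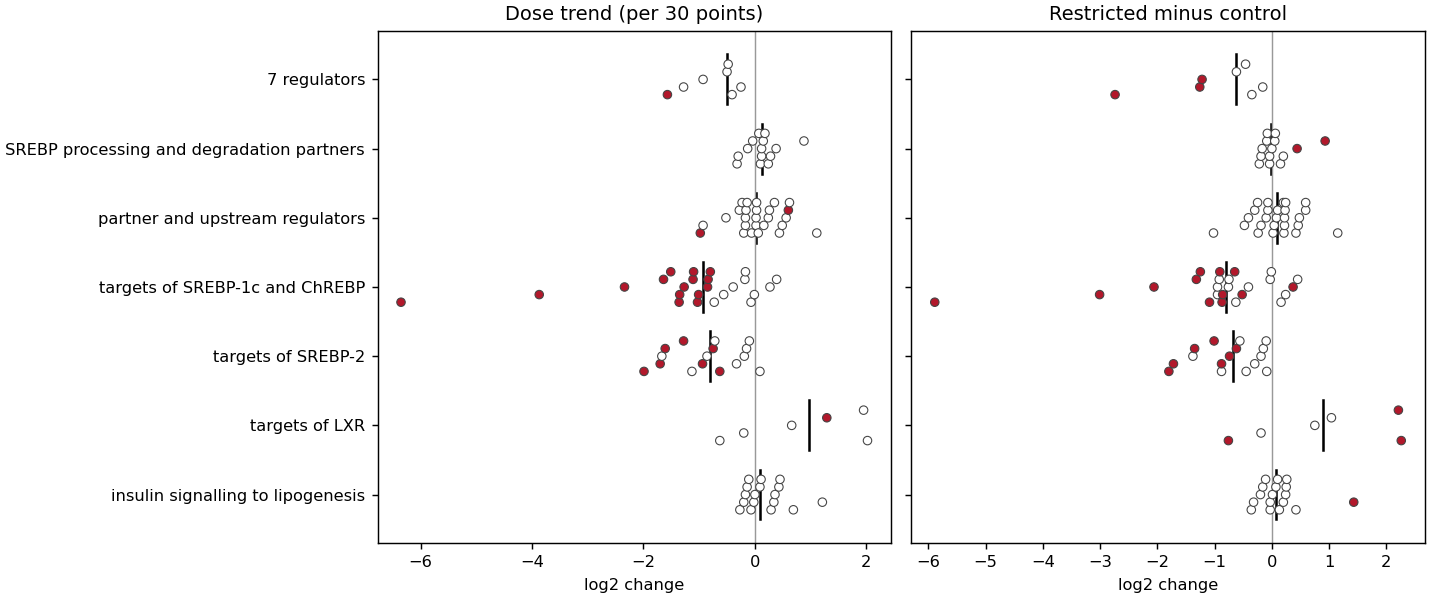
Log2 change (horizontal axes) of the 7 regulators and of the measured genes of 6 lists, in the dose trend over 30 percentage points and for restricted minus control pools. Each circle is a gene, spread vertically only for legibility, red circles have an adjusted p under 0.05 and black bars are medians; the bars of the SREBP-1c and ChREBP targets stand at -0.93 and -0.81 and those of the SREBP-2 targets at -0.8 and -0.68.

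The courses of the 7 genes over the pools were not alike. As a description over the same 10 pools, Pearson's r was 0.91 between Srebf1 and Scap, 0.83 between Insig1 and Insig2, and 0.67 between Srebf1 and Insig1. Thrsp had r of 0.61 with Srebf1, -0.01 with Insig2 and -0.04 with Insig1. The genes closest to Srebf1 by r were Slc25a1 and Map4k4 (0.96) and Gna12, Scly and Elovl6 (0.95). Those closest to Insig1 were Dapk1 (0.95), Pkdcc and Gfer (0.94), Slc45a3 (0.93) and Tbce (0.92), and those closest to Insig2 were Unc119b, Avpr1a and Hebp1 (0.95) and Cth and Tmem140 (0.94). For Scap they were Prkaca (0.96), B4galt1 (0.94), Tm7sf3 (0.93), Pcyt2 (0.92) and Spint2 (0.91). For Srebf2 they were Shkbp1 (0.93), Xrcc5 (0.92), Cttn (0.91), Sp140 (0.9) and Zfp574 (0.87). For Mlxipl they were Rbpj and Ttc13 (0.94) and Dlg1, Hebp1 and Fut8 (0.93, 0.92 and 0.92). For Thrsp they were Vps72 (0.97), Lcnl (0.96), Cmss1 and Ppp1r12a (0.95) and Sqstm1 (0.94). With median centring in place of quantile normalization, 4 of the 5 closest genes were shared for Srebf1 and Insig1, 3 for Srebf2, 2 for Insig2, Scap and Mlxipl, and 1 for Thrsp.

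Cell type markers and a clock gene were read from the same arrays. All 9 hepatocyte markers on the array were above the filter, and their summed signal was 39000 to 39400 in control pools and 38700 to 40500 in restricted pools. Very bright genes such as Alb (mean log2 signal 13.39) dominate this sum. Quantile normalization evens out the brightest values between arrays, so a steady sum is partly built in. Of 4 adipocyte markers only 1 was above the filter, and Lep, Plin1 and Fabp4 had mean log2 signals of 1.44, 2.55 and 1.7, under the lowest level tested; the list summed to 44.9 to 47.2 in control and 38.9 to 59.1 in restricted pools. The 4 endothelial markers summed to 196 to 237 in control and 254 to 329 in restricted pools. The 4 bile duct markers, 1 of them above the filter, summed to 66.5 to 77 and 42.8 to 59.9. Sums of the Kupffer cell, stellate cell, lymphocyte, red blood cell and exocrine pancreas lists overlapped between control and restricted pools. In the dose trend 1 hepatocyte and 1 endothelial marker rose and 1 pancreas marker fell, beside 1.8% higher and 1.96% lower of all probe sets. In the step 1 hepatocyte and 1 endothelial marker rose, beside 3.16%. In bulk tissue, fewer cells of a type and less RNA per cell cannot be told apart, and the part of these lists in the results was not tested. Dbp, an output gene of the circadian clock named after its values were seen, read 2.06 and 2.83 in the control pools and 5.07 to 8.21 in the restricted pools, a step of 4.98 ± 0.604 (SE, n = 10 pools, limma adjusted p = 0.00106). The time of day of sampling is not given in the sources used here, and the part of clock phase in the steps of Insig1, Srebf1 and Insig2 was not tested.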

How the data were processed

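The deposited intensity values, 1 per probe set and array on a linear scale, came from the authors' MAS5 step, as named in the submitters' processing notes. Nothing is given in the sources used here on its version or scaling target. Array medians of the deposited signal ran from 14 to 33.2, so arrays were quantile normalized on the log2 scale, after each of the 32 zeros took its array's smallest positive value. The 57 control probe sets were then dropped and the upper 60% by mean log2 signal kept (9520 of 15866). The 2 arrays of a pool were averaged. Linear models of limma (version 3.58.1, under R 4.3.3), moderated by eBayes with the variance trended on mean signal and tested two-sided, were fitted over all of these, with Benjamini-Hochberg adjustment and a threshold of 0.05. The number of pools limits the precision.

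Fits used percent restriction as a number, restricted against control, each level as a factor, a step with a dose term, duration, and slopes by duration, each with duration as a covariate where it was not the term tested. The fits were tested on simulated data. Genes named were the 7 members, up to 4 genes of smallest p in each list for the dose trend and the step, and the 5 genes closest to each member by Pearson's r. A few genes outside these (Dgat2, Mbtps1, Mbtps2 and Dbp) were named after their values were seen. The members and lists were chosen with earlier results of these data known, so their counts are no independent evidence of direction. RNA was labelled from 10 ug; the labels' protocol names a plant kit for extraction and the design text an RNeasy mini kit. Array numbers did not pair pools (the closing section gives the check).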

Additional observations from a re-analysis of the deposited data

How the results depend on the processing

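The split by duration that was added later is not counted here. In the other fits, of 67 estimates for members with an unadjusted p under 0.05, all 67 kept their sign in every alternative, and of 53 others 40 changed sign in some alternative. Of 20 calls, 2 passed in every alternative, the step of Insig1 in both fits that hold it. Calls of member genes, counted once per gene and term, moved as follows, and the cause was not tested. In a fit with several terms a gene can thus be counted more than once. The dose trend gave 1 gene, 0 with the Gapdh ratio as a covariate and 1 to 2 with a replicate or pool left out. Over all tested probe sets the dose trend called 2 lower with the Gapdh ratio, against 187 without it. The restriction step gave 3 genes, 1 without a variance trend and 5 without the 5% pool at 1 week. Without either control pool, which leaves 1, it gave fewer genes, and far fewer probe sets of the whole array passed. Over all tested probe sets the step called 75 lower without a variance trend, against 201 with it, and 358 without the 5% pool at 1 week. The levels against control gave 8 calls over the 4 levels, 1 without a variance trend, 4 with the actin ratio as covariate and 2 to 10 with a pool left out (2 without the 1 week control, 5 without the 1 month control). Step and dose together gave 3 calls over both terms, 1 with signals as deposited, 1 without a variance trend and 2 to 4 with a pool or array left out. Slopes by duration gave 1, 0 with signals as deposited, no filter, the upper 40% of probe sets, no variance trend, or the Gapdh or actin ratio, and 0 to 2 with a pool or array left out. Duration and slope difference gave 0 genes in all of these. With the array number as a replicate block and the pool as a random block, fitted on arrays, the counts of calls were 3 for the dose trend, 5 for the step, 15 for levels, 5 for step and dose together and 4 for slopes. The consensus correlation of the arrays of a pool was 0.196, so this fit weighs technical repeats much like separate samples. Over all tested probe sets it also called more: 395 lower in the step, against 201, and 410 lower in the dose trend, against 187. The array numbers share only a label: over 45 pairs of pools the same-numbered arrays' deviations correlated at -0.05 to 0.12 (median 0.03), 2 of them over 0.1. Dim probe sets limit what can be read: the second Srebf2 probe set and 5 pools of Pnpla3 lay under the lowest mean log2 signal tested, 3.54. So did the control pools of Abcg8 and Dbp, the 1 week control pool of Abcg5 and the 1 month control pool of Irs2. The sizes of the rises of these genes are therefore uncertain.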
